A study of Mus musculus with 8 samples.

Results

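The transcription factors of epithelial differentiation Grhl1, Grhl2, Grhl3, Ovol1, Ovol2, Zfp750, Prdm1, Ehf, Elf3 and Barx2 were followed in cells sorted from mouse esophageal epithelium. They were taken by name, and all 10 were found among the 55276 gene symbols of the count table. All 10 also passed the filter on low counts, which kept 17344 genes for testing. The cells came from C57BL6 mice of 14 to 15 weeks, 2 female and 2 male, for which the labels name no genetic change and no drug. Live cells that bore integrin beta-1 and excluded DAPI were divided by Cyto-ID, a dye of autophagic vesicles, into a dim fraction (Cyto-ID Low) and a bright fraction (Cyto-ID High). Every animal gave 1 library of each fraction, so there were 8 libraries of bulk RNA, 4 per fraction, and the animals are the replicates. No unstained or treated library was analysed here, and the Low fraction is the reference throughout. The labels call the cells both squamous and basal, and the series asks how vesicle-rich basal cells differ in proliferation and self-renewal.

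In a stratified squamous epithelium cells divide in the basal layer and mature as they move up, and transcription factors switch the programme on the way. The Grainyhead-like proteins Grhl1, Grhl2 and Grhl3 bind the same DNA element and control junction, barrier and cornified envelope genes. The zinc-finger repressors Ovol1 and Ovol2 hold cells in the epithelial state and limit the growth of progenitors. Zfp750, a target of the basal regulator p63, promotes late differentiation, and Prdm1 (Blimp1) is a repressor that acts in the upper layers. Ehf and Elf3 are epithelium-restricted Ets factors, and Barx2 is a homeobox factor of developing and adult epithelia.

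Depth was even, with 26285150 to 29301054 counts per library. Both fractions held the transcripts of the gated layer and of the layers above it, in different amounts. The summed level of 10 basal markers, Krt5, Krt14 and Itgb1 among them, ran from 22032 to 26255 CPM (counts scaled to a common library size) in Low and from 2882 to 4577 in High. All 10 were called lower in High, Itgb1, the gene of the gated protein, from 370.2 ± 31.6 to 68.2 ± 18.2 CPM. The sum of 12 suprabasal markers, Krt4 and Krt13 among them, ran from 12045 to 29317 in Low and from 148343 to 250277 in High. Of the 11 that could be tested 10 were called higher. Krt16, one of the 10, had an edgeR adjusted p of 0.0279, and up to 0.256 over the alternatives. CPM here are normalised with TMM factors (trimmed mean of M values), a method that takes most genes to be equal. The TMM factor was 1.16 to 1.30 in Low and 0.679 to 0.944 in High, lowest in the High library of Male2, which also had the fewest genes with a count (22208, against 24820 to 28266 in the other 7). Since the RNA was bulk, a lower level can come from fewer cells of a kind or from less RNA in each, and these cannot be told apart. These marker sums differ between the same fractions as the factors below, and their part in those results was not tested.

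Promoter sequence is shown for the 3 factors that rose most, so that the stretches before their start sites can be seen beside their levels. RefSeq promoters (GRCm38.p6) were held for 5 of the 10 factors, with 2 start sites for Grhl1. Each stretch below reads 5′ to 3′ on the gene's strand and ends just before the start site or before the first annotated exon base. Capitals mark the ZNF750 motif CCNNNAGGC on either strand, and the Grhl1 windows are chr12:24572037-24572282 and chr12:24580469-24580718 on the plus strand, the second lying inside the gene and outside its annotated exons. The Grhl3 window is chr4:135573633-135573882 and the Prdm1 window chr10:44458749-44458998, both on the minus strand, and the Prdm1 window also lies inside its gene.
Grhl1, first start: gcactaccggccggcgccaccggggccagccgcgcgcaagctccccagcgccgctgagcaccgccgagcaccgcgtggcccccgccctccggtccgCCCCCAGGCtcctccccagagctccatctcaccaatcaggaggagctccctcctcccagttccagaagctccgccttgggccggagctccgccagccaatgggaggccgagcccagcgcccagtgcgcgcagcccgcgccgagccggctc
Grhl1, inner start: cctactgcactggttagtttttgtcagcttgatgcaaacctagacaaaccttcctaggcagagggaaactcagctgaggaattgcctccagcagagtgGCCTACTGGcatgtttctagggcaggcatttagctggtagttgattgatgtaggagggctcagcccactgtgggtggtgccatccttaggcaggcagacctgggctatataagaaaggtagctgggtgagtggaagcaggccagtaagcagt
Grhl3: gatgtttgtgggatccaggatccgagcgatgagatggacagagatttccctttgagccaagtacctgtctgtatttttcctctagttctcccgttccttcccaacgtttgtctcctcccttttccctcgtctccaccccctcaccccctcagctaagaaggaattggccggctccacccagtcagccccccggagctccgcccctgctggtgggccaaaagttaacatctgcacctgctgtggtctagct
Prdm1: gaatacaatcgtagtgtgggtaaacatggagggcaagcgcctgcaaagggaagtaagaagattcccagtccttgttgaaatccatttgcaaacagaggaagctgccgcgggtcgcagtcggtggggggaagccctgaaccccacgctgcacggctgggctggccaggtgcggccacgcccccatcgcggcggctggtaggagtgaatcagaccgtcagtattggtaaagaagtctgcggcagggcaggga

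The first Grhl1 promoter was the richest in G and C, at 76.0%, with 27 CpG. The inner Grhl1 promoter held 52.0% and 0 CpG, Grhl3 56.0% and 8, and Prdm1 59.2% and 15, where the median over all 32851 promoters of the table was 52.4%. The motif CCNNNAGGC lay in 3 of the 6 promoters of these factors (250 bases before the start, both strands), namely both of Grhl1 and that of Ovol2, whose window lies in an annotated exon and is not printed, and in 19.8% of all promoters. The GRHL element AACCGGTT, the OVOL core CCGTTA, the BLIMP1 core AGTGAAAG and the ETS core CCGGAAGT lay in 0 of the 6, and in 0.116%, 2.18%, 1.09% and 2.88% of all promoters. None of the 5 motifs contains another, and both strands were read. A match says only that the letters are present, and gene counts do not show which Grhl1 start was used.

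Between the fractions 7 of the 10 factors rose in Cyto-ID High (Grhl1, Grhl3, Ovol1, Zfp750, Prdm1, Ehf and Elf3), 2 fell (Grhl2 and Ovol2) and Barx2 did not pass. The call is an adjusted p under 0.05 in edgeR's quasi-likelihood test with sex as a covariate, with Benjamini-Hochberg adjustment over all tested genes. The fractions differed broadly, since 48.7% of all tested genes passed, 23.4% higher and 25.3% lower. The levels of 8 of the 10 factors did not overlap between the fractions, as was true of 48.6% of all tested genes, and Elf3 and Barx2 overlapped. With TMM the direction was the same in all 4 animals for each of the 10. The plot of levels by library shows each animal's pair.

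**Figure D1:**
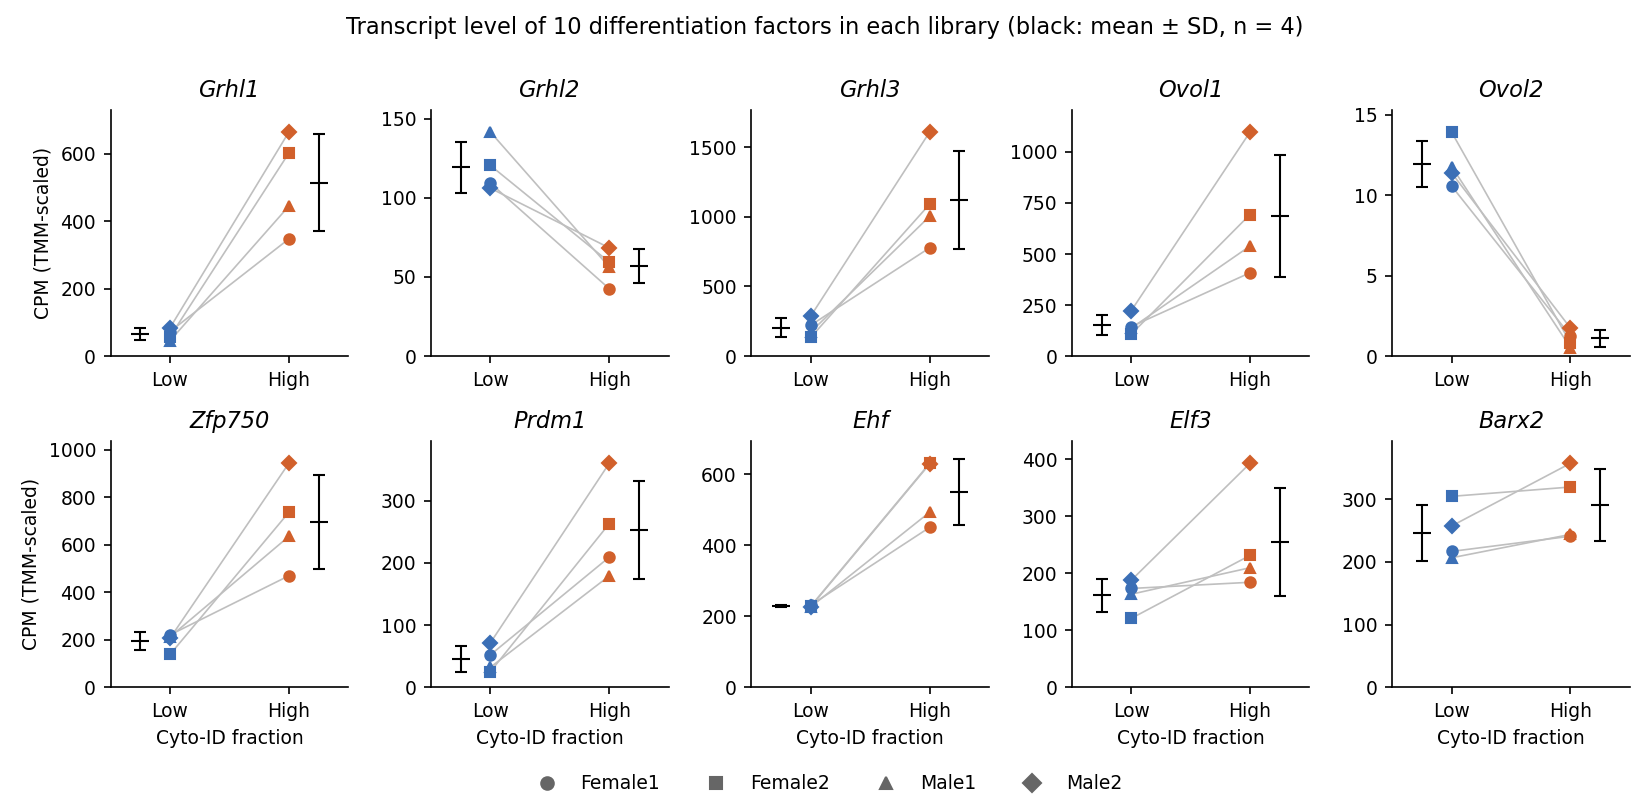
Level of each factor in CPM (TMM-scaled, linear axis from 0) in Cyto-ID Low and High, with 1 symbol per animal, a line joining the libraries of an animal, and mean ± SD (n = 4) in black. Grhl2 and Ovol2 fall in every animal, while the levels of Elf3 and Barx2 overlap between the fractions.

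The Grhl factors did not move together. Grhl1 (ENSMUSG00000020656.16, chromosome 12, 24572283 to 24617391), which is known to control desmosomal cadherins, was at 72.8, 57.8, 45.7 and 84.2 CPM in the Low libraries of Female1, Female2, Male1 and Male2, the order used from here on. In High it was at 348, 602, 445 and 665 CPM. Every High library lay far above every Low library, and the fitted log2 rise of 2.98 (SE 0.28, edgeR adjusted p 2.79e-05) was the steepest of the 10. Grhl3 (chromosome 4, 135541888 to 135573630), a factor of barrier formation and of transglutaminase expression, was at 222, 135, 173 and 288 CPM in Low and at 777, 1089.7, 1003 and 1607 in High. It rose by 2.44 (SE 0.27, edgeR adjusted p 6.76e-05), again with no overlap.

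Grhl2 (chromosome 15, 37233036 to 37363569), which maintains E-cadherin and other junction genes, ran the other way. It was at 109, 120.4, 141 and 106 CPM in Low and at 42.6, 59.4, 56.3 and 68.4 in High, and its log2 level fell by 1.08 (SE 0.17, edgeR adjusted p 0.000487). The lowest Low library stayed above the highest High library. Gm16136 shares 169 exon bases with Grhl2 on the opposite strand and had 344 to 970 counts in Low and 1395 to 2476 in High. The counting is not stated to use strand, so reads in that stretch cannot be assigned with certainty.

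Set against each other per kb of exon, the family changed in make-up. Grhl3 led in both fractions, with 73.1% ± 5.38 of the summed Grhl level in Low and 80.0% ± 1.99 in High (SD, n = 4 each). Grhl2 held 14.9% ± 4.94 in Low and 1.35% ± 0.151 in High, while Grhl1 went from 11.98% ± 2.01 to 18.7% ± 1.94. In Low the per-kb levels of Grhl1 and Grhl2 overlapped, at 11.8 ± 3.05 and 13.8 ± 1.86 CPM per kb. In High they were 92.9 ± 26.1 and 6.58 ± 1.24. The log2 ratio of Grhl1 to Grhl2 within a library, which no scaling can alter, was −0.26 ± 0.57 in Low and 3.80 ± 0.18 in High. It was higher in High in 4 of 4 animals, by 3.61 to 4.61 (exact two-sided sign-flip test, p = 0.125, the smallest that 4 pairs allow). Grhl1 also gained on Grhl3, by 0.52 ± 0.17 on the log2 scale and in 4 of 4 animals, with the same exact p of 0.125.

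The Ovol factors parted more widely still. Ovol1 (chromosome 19, 5549136 to 5560646), which acts at the exit from the basal layer, was at 145, 107, 137 and 222 CPM in Low and at 408, 693, 539 and 1097 in High. Its log2 level rose by 2.16 (SE 0.29, edgeR adjusted p 0.000216), and the High libraries differed among themselves by more than the Low ones. Ovol2 (chromosome 2, 144305175 to 144332146), a repressor of mesenchymal genes in epithelial progenitors, was at 10.6, 13.9, 11.8 and 11.4 CPM in Low and at 1.27, 0.827, 0.534 and 1.75 in High. It fell by 3.46 in log2 terms (SE 0.33, edgeR adjusted p 3.17e-05), the steepest fall of the 10, which rested on 14 to 34 counts in High against 342 to 506 in Low.

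Per kb of exon Ovol1 made up 87.8% ± 4.13 of the summed Ovol level in Low and 99.7% ± 0.158 in High (SD, n = 4 each). The log2 ratio of Ovol1 to Ovol2 within a library was 2.91 ± 0.56 in Low and 8.60 ± 0.73 in High, higher in 4 of 4 animals (exact two-sided sign-flip test, p = 0.125). The third family member, Ovol3, had 0 to 3 counts per library and was not tested. Exons of 1700108N11Rik overlap Ovol2 on the opposite strand but had at most 4 counts. Those of Gm31166 overlap Ovol1 in the same way and had at most 18 counts.

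**Figure D2:**
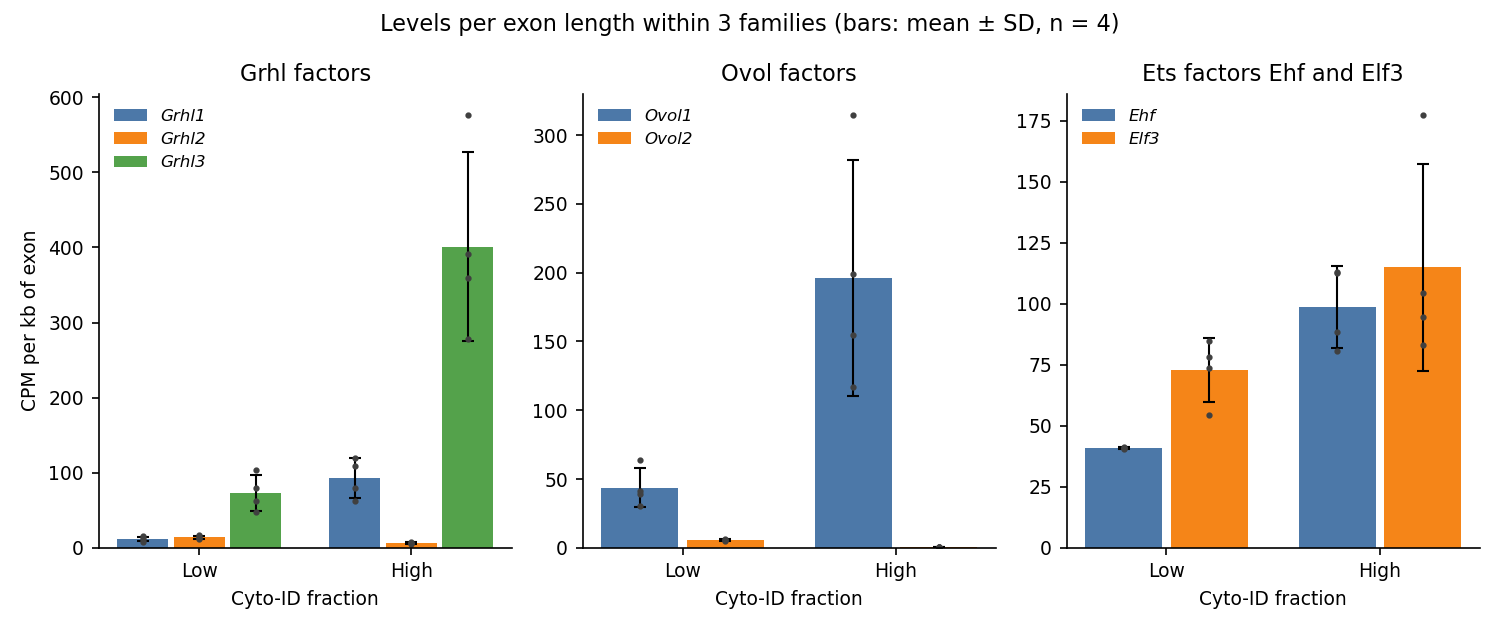
Mean level in CPM per kb of annotated exon (bars start at 0, error bars are SD, n = 4, points are libraries) of the Grhl factors, the Ovol factors and the Ets factors Ehf and Elf3 in Cyto-ID Low and High. Grhl3 and Ovol1 lead their families in both fractions, and Grhl2 and Ovol2 shrink in High to 1.35% and 0.284% of the family level.

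Zfp750 and Prdm1, the late-acting regulators of the group, both rose. Zfp750 (chromosome 11, 121510978 to 121519333) was at 221, 139, 212 and 207 CPM in Low and at 469.8, 737, 636 and 943 in High, a log2 rise of 1.83 (SE 0.23, edgeR adjusted p 0.000145). The Low library of Female2 stood below the other 3, which lay close together. Prdm1 (chromosome 10, 44437177 to 44528501) was at 52.2, 25.3, 32.3 and 71.6 CPM in Low and at 209, 263, 179 and 359.7 in High. It rose by 2.49 (SE 0.34, edgeR adjusted p 0.000259) with no overlap between the fractions.

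Prdm1 is also a defining factor of plasma cells, so the transcripts of those cells were read beside it. Over the plasma cell list (6 of 6 genes detected) the summed level was 569 to 679 CPM in Low and 1154 to 1438 in High, most of it from Sdc1 and Xbp1, which epithelium expresses as well. Both were called higher in High, Sdc1 by 1.07 and Xbp1 by 0.96 (edgeR adjusted p 0.000223 and 0.00266). Xbp1 was at 0.40 under total counts, and its adjusted p reached 0.0926 over the alternatives. The other 4 genes were low in both fractions. Jchain had 1.52 ± 0.54 CPM in Low against 1.27 ± 1.17 in High, Igkc had 5.53 ± 2.05 and 5.24 ± 4.58, Mzb1 had at most 2 counts and Tnfrsf17 at most 1, with 0 in High. Of the 12 leukocyte markers all were detected, with a sum of 67.7 to 111 CPM in Low and 6.48 to 109 in High. Of the 7 that could be tested Cd207, a Langerhans cell gene, was called lower (−2.24, edgeR adjusted p 0.00585) and 6 did not pass. The part of plasma cells and other leukocytes in the Prdm1 values was not tested.

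The Ets factors rose less. Ehf (chromosome 2, 103263433 to 103303278) was at 231, 229, 227 and 227 CPM in Low, a spread of only 2.11 (SD), and at 450.0, 630.3, 493 and 628 in High. Its log2 rise of 1.27 (SE 0.17, edgeR adjusted p 0.000187) exceeded the spread within either fraction. The narrow Low range depends on the TMM factors, since scaled by total counts alone the same libraries ran from 263 to 298 CPM. Elf3 (chromosome 1, 135253575 to 135258568) was at 174, 121, 163 and 188 CPM in Low and at 184, 232, 209.9 and 393 in High. The lowest High library lay below the highest Low library, and only the High library of Male2 stood far above the rest.

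Elf3 passed narrowly, with a log2 difference of 0.64 (SE 0.22, edgeR adjusted p 0.0382). Scaled by total counts alone it was 0.05 (adjusted p 0.812), without the High library of Male2 it was 0.40 (adjusted p 0.11), and over all alternatives the adjusted p ran from 0.00472 to 0.812. Female2 carried transcripts of gastric glands, a tissue that also expresses Elf3. The 11 gastric genes summed to 19.8 CPM in its Low and 117 in its High library, and to 0.664 to 1.39 CPM in the other 6. Elf3 in Female2 was the lowest Low value and the second highest High value, and without both of its libraries the difference was 0.56 (adjusted p 0.114). The part of the gastric transcripts in the Elf3 values was not tested. The call was also lost without the Low library of Female2 (0.57), the High library of Female2 (0.60), the Low library of Male1 (0.56) or both libraries of Male2 (0.50). Ehf without Female2 kept a difference of 1.21 (edgeR adjusted p 0.00157). Within a library Ehf gained on Elf3 by 0.64 ± 0.21 on the log2 scale per kb, in 4 of 4 animals (exact two-sided sign-flip test, p = 0.125).

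Barx2 (chromosome 9, 31846044 to 31913462) was at 217, 305, 207 and 257 CPM in Low and at 241, 319.5, 244 and 357 in High. The fractions overlapped, and the SD within Low (44.6 CPM) and within High (57.5) was about as large as the gap between the means of 246 and 290.5. The log2 difference of 0.24 (SE 0.20, edgeR adjusted p 0.358) did not pass, though each animal's High library was the higher by 0.07 to 0.47. Under total counts it turned to −0.35 (adjusted p 0.0792), so that no direction can be given for Barx2.

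**Figure D3:**
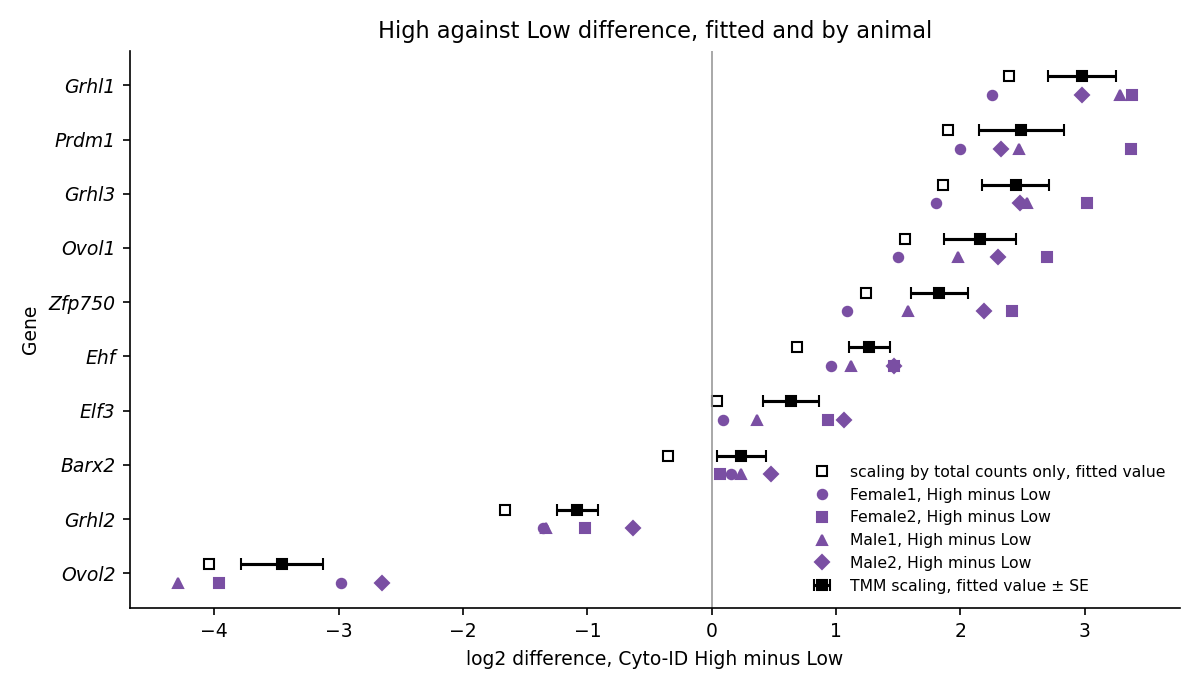
Log2 difference of Cyto-ID High minus Low for each factor, sorted by size: fitted value with SE under TMM (filled squares), fitted value under total counts only (open squares) and the difference within each of the 4 animals (purple symbols, log2 CPM). Total-count values lie to the left for every factor, and for Elf3 and Barx2 they reach 0.05 and −0.35.

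The scaling thus set a shared offset on all values. With total counts in place of TMM the log2 median over the tested genes shifted by −0.55, and then 12.6% of genes were called higher and 49.1% lower. Of the 10 factors 6 were still called higher and 2 lower, and Elf3 and Barx2 were not called. Grhl1 was then at 2.39, Prdm1 at 1.90, Grhl3 at 1.86, Ovol1 at 1.55, Zfp750 at 1.24 and Ehf at 0.69, and Grhl2 and Ovol2 at −1.66 and −4.04. Differences between animals within the High fraction depended on the scaling too. Under TMM 9 of the 10 factors were highest in the High library of Male2, the one with the lowest TMM factor, and under total counts 5 were. Female1 had the smallest High against Low difference in all 7 of the factors that rose, and in 6 of the 7 under total counts.

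Levels were also ranked per kb of exon, so that genes of different length can be set side by side. The length joins all annotated exons of a gene, as for the family shares above, and the transcripts expressed may be shorter. In Low the order was Barx2 at 125 ± 22.7 CPM per kb, Grhl3 at 73.3 ± 23.7, Elf3 at 72.8 ± 13.0, Zfp750 at 60.2 ± 11.7, Ovol1 at 43.7 ± 14.1 and Ehf at 41.0 ± 0.378, followed by Grhl2, Grhl1, Prdm1 at 8.13 ± 3.74 and Ovol2 at 5.64 ± 0.676. Only the steps from Barx2 to Grhl3 and from Ehf to Grhl2 had ranges that did not overlap. In High Grhl3 led at 401 ± 126, ahead of Zfp750 at 215.5 ± 61.3, Ovol1 at 196 ± 85.7, Barx2 at 147.6 ± 29.2, Elf3 at 115 ± 42.5, Ehf at 98.7 ± 16.7, Grhl1 and Prdm1 at 45.3 ± 14.2. Neighbours in that order overlapped in range down to Prdm1, and clear gaps separated Prdm1 from Grhl2 at 6.58 ± 1.24 and Grhl2 from Ovol2 at 0.519 ± 0.251.

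No dependence of these changes on sex was detected. In a model with an interaction of sex and fraction, 0 of the 10 factors passed (edgeR adjusted p 1.00 for each, lowest unadjusted p 0.542, for Barx2), and 0 were under an unadjusted p of 0.05. Over all 17344 tested genes 0 passed and 19 were under an unadjusted p of 0.05. That is far fewer than such a threshold picks by chance, so the test was conservative here and could call little. The male minus female estimates ran from −0.23 for Prdm1 (SE 0.70) to 0.28 for Elf3 (SE 0.47). With SEs of 0.35 to 0.70 and 2 animals per sex, differences of that size were not detectable.

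The closest profiles in the table were sought for each factor as the smallest root mean square difference of log2 CPM over the 8 libraries, after each gene's own mean had been subtracted, among 9997 genes of at least 5 CPM. Among the factors themselves Grhl3 lay nearest to Prdm1 (0.21 log2 units) and to Ovol1 (0.22). Grhl1 was followed most closely by Nectin4, an adhesion receptor (0.15), Trp53inp2 and Cgn, which encodes the junction protein cingulin. Grhl3 was followed by Mdfi (0.11), F3, the tissue factor gene, and Plk3. Prdm1 was followed by Areg, which encodes the EGF receptor ligand amphiregulin (0.15), F3 and Lypd3, and Ovol1 by Cnksr3 (0.15), Tuba4a and Hbegf, which encodes another such ligand. Among the factors that fell, Ovol2 was nearest to Heph (0.25), the hemidesmosome integrin Itgb4 and the basal keratin Krt5, and Grhl2 to Atg4c (0.083), Pygb and Atf3, a gene of the dissociation stress list. Zfp750 was nearest to Map3k6 (0.14), Ces1b and Lpar5, Ehf to Pole3 (0.049), D5Ertd579e and Leprotl1, Elf3 to Samd4b (0.096), Ezr and Hgs, and Barx2 to Trim25 (0.045), Sdr39u1 and Zbtb8os. Much of this likeness is the step between the fractions that the genes share.

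Relatives of the factors, from the same protein families, are listed beside them. Of 12 relatives 9 were tested, 1 rose, 5 fell and 3 did not pass, with a median log2 fold change of −0.60 where all tested genes had −0.09 and 23.4% of them rose and 25.3% fell. Elf5, an Ets factor close to Ehf and Elf3, was the one that rose, from 10.3 ± 3.95 to 88.9 ± 17.3 CPM (log2 fold change 3.12, SE 0.32, edgeR adjusted p 4.72e-05). The Ets factors Ets1, Elf4 and Elf2 changed by −1.72, −1.27 and −0.60, and the Grainyhead relatives Tfcp2l1 and Ubp1 by −1.07 and −0.69. Ets2, the most abundant relative with 674 ± 201 CPM in Low against 502 ± 151 in High, did not pass (edgeR adjusted p 0.197), nor did Elf1 and Tfcp2. Barx1 was at 0 counts in all 8 libraries. Under total counts 8 of the relatives were lower, as were 49.1% of all tested genes, and Elf5 was still higher.

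Of 12 regulators and partners 3 were higher, 2 lower and 7 not past the threshold, near the shares of all tested genes (23.4% higher and 25.3% lower). Klf4, which works with Zfp750 in late differentiation, rose from 1180.4 ± 280.3 to 3608 ± 1084 CPM (log2 fold change 1.62, SE 0.24, edgeR adjusted p 0.000419). Trp63, the basal regulator upstream of Zfp750, fell from 504 ± 108 to 121 ± 12.8 CPM (−2.06, SE 0.20, edgeR adjusted p 3.18e-05), so it and Zfp750 moved in opposite directions. Lmo4, a partner of Grhl3, changed by −1.56 (SE 0.15). Of the corepressor genes that work with Zfp750, Rcor1 rose by 0.67 and Ctbp2 by 0.58, and both were near 0 under total counts (0.08 and −0.01). Rcor1 also missed the threshold without the High library of Female2 (edgeR adjusted p 0.0552) and without both libraries of Male2 (0.0508). Exons of Ctbp2 share 314 bases with Fgfr2 in the annotation. Ctbp1 (log2 difference −0.47, edgeR adjusted p 0.0602) and Kdm1a (−0.26, edgeR adjusted p 0.121) did not pass, and neither did Hdac1, Hdac2, Kmt2d and Kdm6a. With the animal as a replicate block Ctbp1 did pass (adjusted p 0.0149).

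Genes reported elsewhere to be activated by these factors were mostly higher. Of 24 such genes 23 were tested, of which 21 rose and 2 fell, where 23.4% and 25.3% of all tested genes did. Cldn3 was too low to test. Their median log2 fold change was 2.35, and in single animals 2.10 to 2.56. The largest rises were those of the desmosomal cadherin Dsg1a, from 51.8 ± 37.3 to 947 ± 194 CPM (4.19, SE 0.59, edgeR adjusted p 0.000303), the lipoxygenase Alox12b (4.17, SE 0.57), the envelope protein gene Lor (4.12, SE 0.64), Dsg1b (3.94, SE 0.36) and the transglutaminase Tgm5 (3.90, SE 0.53). Dsg1a and Dsg1b are close copies, so reads may have been divided between them. The 2 genes that fell were Arhgef19, a reported Grhl3 target in cell polarity (−1.09, SE 0.16), and Epcam (−1.02, SE 0.16), an adhesion gene linked to Grhl2. Cdh1, the gene of E-cadherin and also linked to Grhl2, rose while Grhl2 fell (0.68, SE 0.22, edgeR adjusted p 0.0277). The Cdh1 difference was 0.12 under total counts, and its adjusted p reached 0.614 over the alternatives. Krt4, Tgm3 and Dsg1a of this list are also suprabasal markers, so the lists are not separate measures. The part of the suprabasal marker difference in the rest of this list was not tested. Of 16 RefSeq promoters held for 15 of these genes, 5 (31.2%) contained CCNNNAGGC, against 19.8% of all promoters, and 0 contained any of the other 4 motifs, which lay in 0.116% to 2.88% of all promoters. With so few promoters nothing is read from these counts.

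Of 12 genes reported to be repressed by the factors 11 were tested, 0 rose, 4 fell and 7 did not pass, where 25.3% of all tested genes fell. Their median of −0.62 was loose, since single animals gave −3.00 to 0.07. It was −0.28 without the Low and −0.26 without the High library of Male2, −0.057 without both, −0.40 without the High library of Female2 and −0.97 without that of Male1. Snai2, a factor of the mesenchymal transition that basal keratinocytes also use, fell from 60.0 ± 11.1 to 4.90 ± 1.85 CPM (−3.60, SE 0.28, edgeR adjusted p 1.62e-05). Tgfb2 and its receptor gene Tgfbr2 changed by −2.36 (SE 0.35) and −2.25 (SE 0.19), and the progenitor factor Id2 by −0.64 (SE 0.15). Without both libraries of Male2 Id2 did not pass (−0.47, edgeR adjusted p 0.0668). Myc, a named target of both Ovol1 and Prdm1, had 364 ± 52.6 CPM in Low against 364 ± 86.3 in High (log2 difference 0.01, SE 0.18, edgeR adjusted p 0.976). Under total counts the Myc difference was −0.58, close to the shift of all genes.

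Of the mesenchymal genes of that list Snai2 fell, while Vim, Zeb1, Zeb2, Snai1, Twist1 and Hmga2 did not pass and Cdh2 was too low to test. In High Vim ran from 107 to 1334 counts and Hmga2 from 0 to 373. Fibroblast markers (8 of 8 detected) had sums of 317 to 501 CPM in Low and of 471, 152, 336 and 38.7 CPM in the High libraries. Of the 8, Dcn was called lower in High (−2.87, SE 0.33, edgeR adjusted p 9.15e-05), and the other 7 did not pass, at −0.11 to −0.85. Their part in the values of the mesenchymal genes was not tested. Endothelial and muscle markers were also lowest in the High library of Male2, at 2.73 and 5.04 CPM. Of these lists, 8 genes each, Acta2 was called lower (−1.54, edgeR adjusted p 0.0178, up to 0.0864 over the alternatives), and the other 15 did not pass. The 10 genes of dissociation stress summed to 15305 to 19092 CPM in Low and 9960 to 21059 in High. Of the 10, Jun and Atf3 were called lower (−0.84 and −0.96, edgeR adjusted p 0.0132 and 0.00400), Ier2 was called higher (0.62, adjusted p 0.0288, and 0.03 under total counts), and 7 did not pass.

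**Figure D4:**
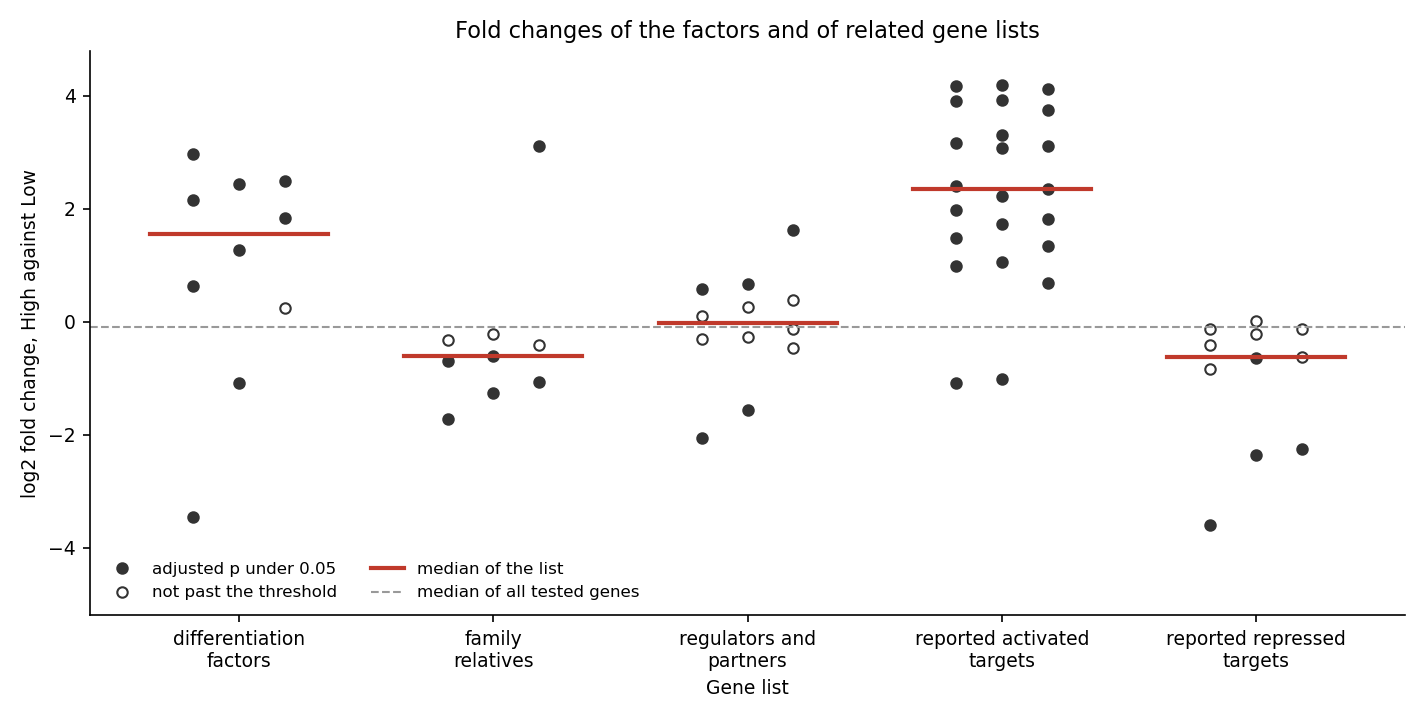
Log2 fold change, Cyto-ID High against Low, of each tested gene in 5 lists, filled where the adjusted p was under 0.05, with the median of each list in red and that of all tested genes as a dashed line at −0.09. Points are spread sideways for legibility; the factors and their activated targets have medians of 1.55 and 2.35, and the relatives and repressed targets of −0.60 and −0.62, the last running from −3.00 to 0.07 in single animals.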

How the data were processed

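The authors deposited raw counts per gene symbol for 8 libraries, as the whole numbers and unequal totals show. STAR 2.7.3, DESeq2 and the build GRCm38 are named in the submitters' processing notes, with no role given. The counting tool, annotation, strandedness and filters are not given in the sources used here. Column names gave the animal and fraction of all 8 libraries, with 0 columns left over.

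The test was run in edgeR 4.0.16 (R 4.3.3): filterByExpr by fraction, TMM, glmQLFit and glmQLFTest over all 8 libraries with sex as a covariate, and Benjamini-Hochberg adjustment over 17344 genes (threshold 0.05, two-sided). Each SE is the log2 fold change divided by the root of F, and a prior count of 2 enters log2 CPM. Libraries of 1 animal are pairs by their names and the shared cell suspension. Their deviations from the fraction means correlated at 0.43, 0.32, −0.02 and 0.28 across genes, which are not independent, and those of different animals at −0.37 to 0.35, so the pairing rests on the names and not on these values. Alternatives were RLE factors, total counts, no filter, at least 10 counts in every library, DESeq2 1.42.0, limma-voom (limma 3.58.1), no covariate, the animal as replicate block, each library left out, and Female2 or Male2 left out.

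Exon lengths, overlaps and coordinates are from GENCODE M21 (GRCm38), the build named by the submitters. On simulated counts with 200 changed genes the test recovered 0% at a log2 change of 0.5, 24.5% at 1 and 66% at 1.5. At most 7 others were called among 16882 to 16983 genes. With the animal as replicate block 0%, 7% and 63% were recovered. In the data 48.7% of tested genes were called, a far larger share, and the adjusted p depends on that share. These rates therefore do not give the sensitivity in the data, though small differences can still be missed.

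The factors and lists were chosen with earlier results of these data known, and the target, partner and marker lists are from general knowledge. Genes of the 4 related lists were named by rule: up to 5 with the largest change in each direction (adjusted p under 0.05, mean of at least 1 CPM) and up to 5 abundant ones that did not pass. Hdac1, Kdm6a, Zeb1, Snai1, Cdh1, the single marker genes and genes too low to test were named outside this rule. One gene that the rule names is not reported here. For each factor the 3 genes of most similar profile were named (mean of at least 5 CPM, leaving out the other factors and symbols of the Gm and Rik kind). Spreads are between animals and include counting error. Each SE comes from the test with sex as covariate, which does not pair the libraries of an animal.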

Additional observations from a re-analysis of the deposited data

Results flagged for a closer look

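In 38 groups of 4 libraries (the 10 factors and 9 marker lists in each fraction) the highest and lowest library were compared with the rest by Dixon's test. Chance alone would pick about 1 group in 20, and the test picked 3 values, all of them in Female2. That is near what chance gives in 38 groups, and the gastric gland list gave a value in both libraries of Female2. Zfp750 in Cyto-ID Low was 139 CPM in Female2, where the other 3 libraries lay between 207 and 221. The summed level of the 11 gastric gland markers was 19.8 CPM in the Low library of Female2 and 117 CPM in its High library, where the other 6 libraries lay between 0.664 and 1.39. Without both libraries of Female2 the log2 difference of Zfp750 was 1.66 (edgeR adjusted p 0.00191), against 1.83 with them.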

How the results depend on the processing

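Of the 10 factors, 8 held both direction and call in all 18 alternatives, the exceptions being Elf3 and Barx2. Elf3 did not pass in 7 of them, and Barx2 turned to −0.35 under total counts. The replicate block changed no factor's call: with the animal as a replicate block 7 factors were higher and 2 lower, Elf3 had an adjusted p of 0.0253, and no dependence on sex was detected. Over all tested genes the block called 4400 higher and 4936 lower. The main test, which does not use the pairing, called 4055 higher and 4385 lower. Leaving out each library in turn gave 6 to 7 factors higher and 2 lower. Total counts gave 2194 genes higher and 8514 lower, 8 relatives lower with a median of −1.18, 1 regulator or partner higher and 7 lower with a median of −0.59, and a median of 1.76 for the activated targets. With at least 10 counts in every library 4 regulators or partners were lower in place of 2. The median of the regulators and partners, −0.02, lay so near 0 that its sign changed: it was 0.050 with RLE factors and with DESeq2, 0.021 with limma-voom, 0.019 with the replicate block, and −0.11 to 0.041 when 1 library was left out. The median of the activated targets ran from 2.11 (without Low Male1) to 2.52 when 1 library was left out. The median of the repressed targets ran from −0.97 to −0.26 when 1 library was left out, and was −1.46 with at least 10 counts in every library, −1.09 under total counts and −0.057 without Male2. Without Male2 3 of them were lower in place of 4. Depth limits Ovol2 most, with 14 to 34 counts in High.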
